A study of Mus musculus with 12 samples.

Results

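The Rab GTPases are the largest branch of the Ras superfamily of small GTPases, and 59 of the 24100 genes in the count table were Rab genes. They were taken by gene symbol, as the symbols made of Rab, a number and letters that name a Rab GTPase, and 14 symbols of the same form that name interacting proteins, antisense transcripts or other genes were left out. Rab26 was picked from the family for its fall in RTF2-deficient mouse embryonic fibroblasts (MEFs) of both lines, so its genotype values are given below as a description with no test. The study asked whether transcription changed in MEFs that lack RTF2, a replisome protein. Rtf2+/+ MEFs (WT) were compared with Rtf2-/lox MEFs from the same litters, and both genotypes received retroviral Cre, so the controls carried Cre as well. RNA was collected 72 hrs after Cre from SV40-immortalized MEFs of 2 lines, started from embryos of different mothers. Each line and genotype gave 3 libraries, which a legend of the study calls technical replicates, and each p-value below therefore measures the spread between libraries of 4 cultures and not between animals.

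A Rab cycles between a GDP-bound form held in the cytosol by GDP dissociation inhibitors (GDIs) and a GTP-bound form on a membrane. Guanine nucleotide exchange factors (GEFs) switch it on, GTPase-activating proteins (GAPs) switch it off, and the active form recruits effectors such as tethers, sorting adaptors and motors. Each Rab marks its own compartment, so that the set of Rabs a cell expresses maps its secretory, endocytic and recycling routes. Fibroblasts run constitutive secretion of matrix proteins, endocytosis and recycling of adhesion receptors, and a primary cilium, and they lack the storage granules on which the secretory Rabs of neurons, glands and mast cells act.

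The stretch of coding sequence around the switch II motif, a part of the nucleotide-binding fold that moves on GTP binding, is shown for Rab26, for Rab37 as its nearest relative, for Rab23, and for both members of the Rab1 and Rab4 pairs, because the members of those pairs differed in their response below. Capitals mark the 18 bases of the 6 codons of the motif, which begins with the codon for tryptophan, and each line holds 30 bases of the coding strand, read from GENCODE M21 transcripts.
Rab26: cagatcTGGGACACAGCTGGTCAGgagcgg
Rab37: cagatcTGGGACACTGCAGGACAGgagcgc
Rab1a: cagataTGGGACACAGCAGGCCAGgaaaga
Rab1b: cagattTGGGACACAGCTGGTCAGgagcgg
Rab4a: cagataTGGGACACGGCCGGCCAGgagcgg
Rab4b: cagattTGGGACACTGCTGGCCAGgagcgg
Rab23: atgttaTGGGACACTGCAGGTCAAgaggag
The motif stood in the same reading in 49 of the 59 coding sequences and was altered in the other 10, among them Rab20, Rab24, Rab32, Rab38, Rab40b and Rab40c. In this window Rab26 and Rab37 differed at 4 bases, Rab4a and Rab4b at 3, and Rab1a and Rab1b at 6. The windows lie in GRCm38, for Rab26 on the minus strand within chr17:24530683-24530788, for Rab4b on the minus strand at chr7:27175784-27175813, and for Rab1b on the minus strand within chr19:5104713-5104838. The spans of Rab26 and Rab1b are longer than 30 bases because an intron interrupts the window. Over whole coding sequences Rab1a and Rab1b shared 76.1% of bases, Rab4a and Rab4b 73.2%, and Rab26 and Rab37 61.4%.

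Library totals lay between 39360167 and 44695002 counts. By the chi-square of counts per degree of freedom, 1 library of each group stood apart from the other 2. WT line 2 replicate 1 lay 180 and 85.0 from replicates 2 and 3, which lay 42.9 from each other, and RTF2-deficient line 2 replicate 3 lay 89.8 and 68.6 from replicates 1 and 2, which lay 20.5 from each other. In line 1 it was replicate 1 of both genotypes, at 60.3 and 82.3 against 26.5 in WT and 54.1 and 60.8 against 21.8 in RTF2-deficient MEFs. Rtf2 itself had 1808 to 2660 counts in the WT libraries and 222 to 280 in the RTF2-deficient ones. The 7 fibroblast markers summed to between 19100 and 31700 CPM (read counts scaled to library size by TMM) in every library, against 2.08 to 14.0 CPM for 5 epithelial and 2.43 to 9.66 CPM for 5 haematopoietic markers. In line 1 the epithelial sums were 2.08 to 2.39 CPM in WT and 2.79 to 4.54 in RTF2-deficient MEFs, and in line 2 the genotypes overlapped. The haematopoietic sums overlapped in line 1, and in line 2 they were 6.46 to 9.66 CPM in WT and 4.77 to 4.98 in RTF2-deficient MEFs. Of 6 neuronal or neuroendocrine markers, Chga, Chgb and Snap25 had at most 8 counts in a library, while Stmn2 and Tubb3 brought the sum to 89.6 to 148 CPM in WT line 1, 88.0 to 158 in RTF2-deficient line 1, 31.4 to 71.7 in WT line 2 and 74.6 to 123 in RTF2-deficient line 2. WT line 2 stood apart from the other 3 groups: its libraries had 194 to 210 CPM of 4 Y-linked genes and at most 0.132 CPM of Xist, where the others had at most 1.5 CPM and at least 103 CPM. An interferon score, the median log2 CPM of 15 interferon-stimulated genes, ran from 5.03 to 8.75 in WT line 2, from 1.03 to 4.20 in WT line 1, from 0.854 to 2.09 in RTF2-deficient line 1 and from 1.37 to 7.28 in RTF2-deficient line 2. The sex-linked transcripts therefore differed by genotype in line 2 and not in line 1. The score ranges of the genotypes overlapped in both lines. By replicate number the score was 4.20, 1.03 and 1.90 in WT line 1 and 2.09, 0.854 and 1.11 in RTF2-deficient line 1, lower in each pair. In line 2 it was 8.75, 5.03 and 6.68 in WT and 1.37, 3.29 and 7.28 in RTF2-deficient MEFs. Matched by correlation, RTF2-deficient line 2 replicates 3, 1 and 2 were each below WT line 2 replicates 1, 2 and 3. The score thus went with genotype in these pairs. In line 2 the part of the sex-linked difference cannot be told apart from that of the genotype. In these bulk samples fewer cells of a type and less RNA per cell cannot be told apart.

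The family as a whole took a nearly fixed share of the reads. Rab genes held between 0.34% and 0.363% of all counts in every library, with group means of 0.346% ± 0.00174 in WT line 1, 0.340% ± 0.000872 in RTF2-deficient line 1, 0.357% ± 0.00626 in WT line 2 and 0.353% ± 0.0106 in RTF2-deficient line 2 (SD, n = 3 each). Levels per length (CPM per kilobase of exon, RPKM) spanned more than 4 orders of magnitude across its members. Rab7, which drives late endosome to lysosome transport, was the most abundant at 123 RPKM (108 to 128 over the 6 WT libraries). Rab2a, of transport between the endoplasmic reticulum (ER) and the Golgi, followed at 96.4 RPKM (88.6 to 102) and Rab1a, of ER-to-Golgi transport, at 79.5 RPKM (74.9 to 81.4). Rab10, of exocytosis and ER tubules, had 69.0 RPKM (64.7 to 74.1) and Rab5c, of early endosome fusion, 68.7 RPKM (59.0 to 86.5). Rab7, Rab2a and Rab1a kept that order with no overlap between neighbours, Rab1a and Rab10 did not overlap either, and Rab10 and Rab5c did. These 5 genes held 43.4% of the summed level of the family.

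At the other end of the scale, 7 Rab genes did not pass the filter on low counts, with no more than 13 counts in any library. Rab17 and Rab25 are known from epithelia, Rab3c from neurons and Rab44 from mast cells and other granulocytes. Rab9b, Rab39 and Rab42 were the other members under the filter. The lowest was Rab44, with counts of 0, 0 and 1 in WT line 1, 4, 1 and 1 in WT line 2, none in RTF2-deficient line 1 and 1 in each library of RTF2-deficient line 2. In the shallowest library 3 counts, the upper limit that a count of 0 allows, stand for 0.077 CPM, which covers counting error only. Of the 52 members that passed, 25 had a WT mean over 10 RPKM, 18 a mean over 1 and up to 10, and 9 a mean of 1 or less. The regulated secretion Rabs were a low group, with a median of 1.84 RPKM over 9 members, against 23.3 over the 6 early endosome Rabs and 17.8 over the 4 Rabs of constitutive exocytosis, the 2 highest medians. Rab40b, Rab40c and Rab42, grouped as SOCS-box and other, had a lower median of 0.569. The other groups lay between 4.41 (lysosome-related organelles) and 10.9 (recycling endosome).

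**Figure D1:**
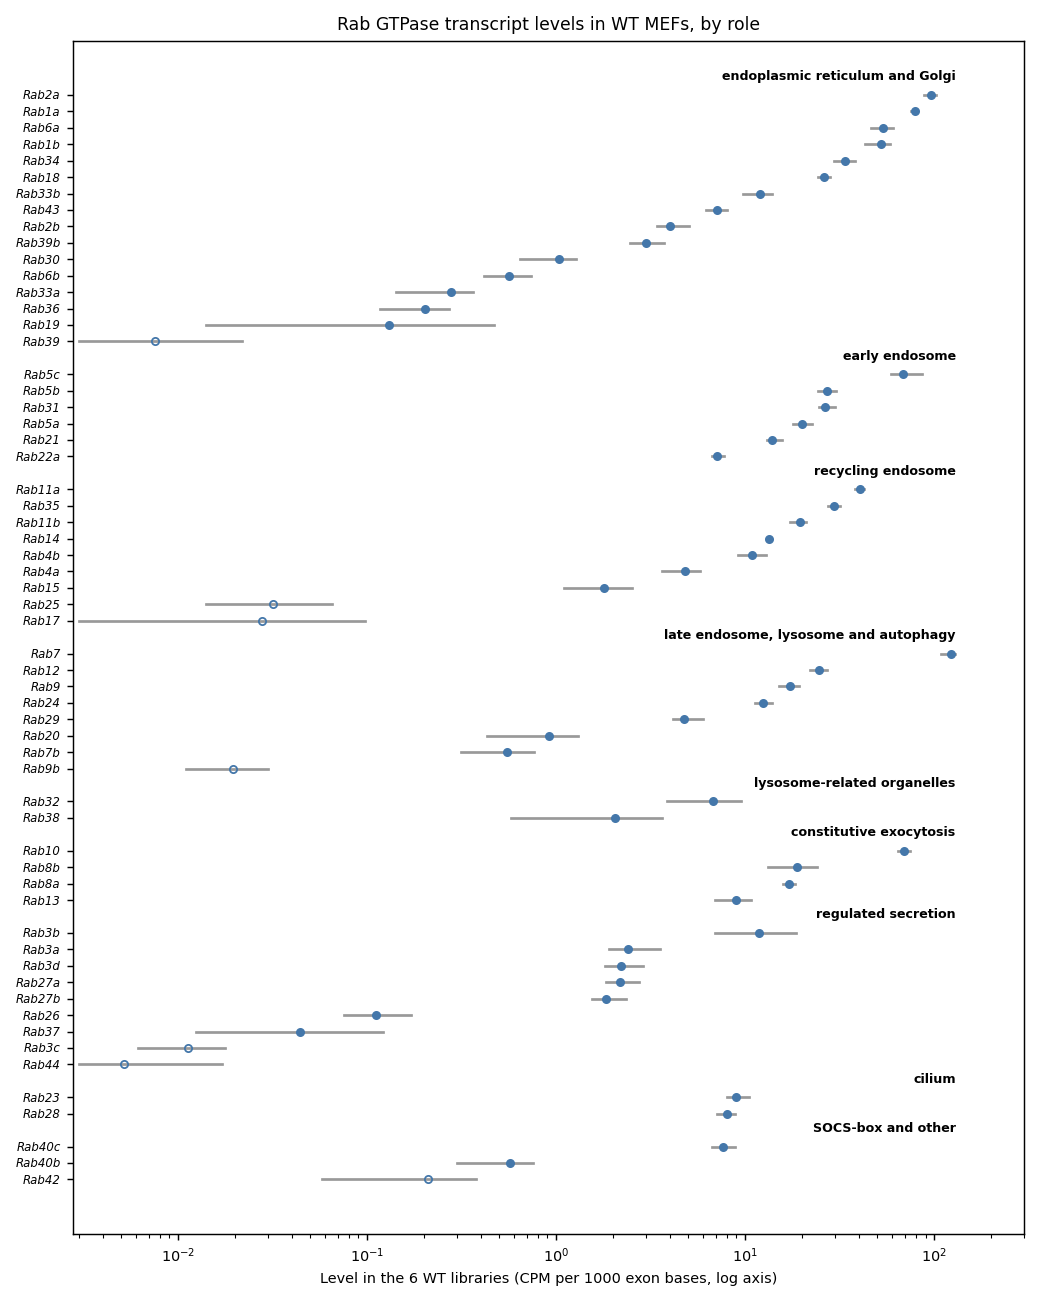
Level of the 59 Rab GTPases in the 6 WT libraries, in CPM per kilobase of exon on a log axis, grouped by role. Points are means and bars run from the lowest to the highest library (a library at 0 is drawn at the left edge), and open points are the 7 members under the count filter. Rab7, Rab2a and Rab1a lead, and Rab26 sits at 0.112 among the low secretory Rabs.

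Rab26, a Rab of secretory granules and synaptic vesicles known for its part in granule maturation in exocrine cells, was close to the detection floor even in WT MEFs. Its counts were 9, 9 and 15 in WT line 1 and 17, 22 and 11 in WT line 2, and they were 1, 1 and 1 in RTF2-deficient line 1 and 2, 0 and 3 in RTF2-deficient line 2. Every RTF2-deficient library was thus at or under 3 counts and every WT library above it. Summed over the libraries of a group, 3 counts stood against 33 in line 1, or 9.09% of WT with an exact 95% interval for counting error of 1.78% to 29%, and 5 against 50 in line 2, or 10.7% with an interval of 3.34% to 26.7%, both shares after scaling for library size. The fitted log2 fold change of -3.21 (SE 0.42) is given without a p-value, since the gene was chosen for this contrast, and it depends on the prior count. With a WT mean of 0.112 RPKM, Rab26 was about as abundant as Rab19 (0.131) and above Rab37 (0.0442).

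Whether the neighbourhood of Rab26 on chromosome 17 bears on its few reads was not measured. RefSeq places the gene at chr17:24529054-24533747 on the minus strand (GRCm38), and 1 of its 5 GENCODE transcripts runs further and overlaps the next gene on the same strand, Traf7, a ubiquitin ligase gene, by 698 bases. Rab26os, an antisense transcript of the opposite strand, spans 497 bases at chr17:24528248-24528744, outside the RefSeq span but inside the wider GENCODE extent of Rab26, chr17:24527241-24534210. Of the 75-base windows in Rab26 transcripts, the length of the reads, 4.21% also occur in Traf7, and whether the counting used strand is not given in the sources used here. Traf7 had 4352, 4775 and 4801 counts in WT line 1 and 4427, 5011 and 4575 in WT line 2, against 3674, 3648 and 3738 and 3668, 3345 and 3921 in the RTF2-deficient lines 1 and 2. It fell by 0.30 on the log2 scale (SE 0.049, adjusted p = 0.00206, edgeR), with no overlap between genotypes. Rab26os had 44 to 74 counts in WT and 34 to 82 in RTF2-deficient libraries, with a log2 fold change of -0.03 (SE 0.25, adjusted p = 0.956). The antisense transcript therefore did not separate the genotypes. Rab37, a mast cell granule Rab and the closest relative of Rab26 by coding sequence, had 12, 3 and 6 counts in WT line 1, 5, 8 and 2 in RTF2-deficient line 1, 30, 3 and 8 in WT line 2 and 4, 3 and 11 in RTF2-deficient line 2. Its groups overlapped in both lines (log2 fold change -0.80, SE 0.58, adjusted p = 0.382).

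Apart from Rab26, 51 members were tested for a genotype difference with both lines in 1 fit. By edgeR's quasi-likelihood test with p-values adjusted over all 14263 genes, 7 of the 51 were lower in RTF2-deficient MEFs and 1 was higher. Across all genes tested 8.18% passed the same test as lower and 4.98% as higher, so that the family's 13.7% lower and 1.96% higher stand beside a broad background. Without RTF2-deficient line 2 replicate 1, or without replicate 2, 4 were lower. Rab4b alone of the 51 also exceeded a log2 fold change of 1, which 1.22% of all genes did downward and 0.505% upward. The median log2 fold change of the 51 was -0.01, with an SD of 0.37, and that of all genes tested was 0.00. Of the 51, 43 lay within 0.5 of no change on the log2 scale and 38 within 0.25. With the libraries of each line and genotype summed to 1 sample, no member passed by edgeR, with 9 lower and 1 higher at an unadjusted p under 0.05, and Rtf2 itself had an adjusted p of 0.0708. DESeq2 on the 12 libraries called 8 lower, adding Rab36, and 3 higher, adding Rab1a and Rab14. No share of all genes was computed for counts at an unadjusted p or by DESeq2, here or below, so these counts have no background beside them.

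Rab4b, which returns cargo such as transferrin receptors from early endosomes to the cell surface, had 923, 949 and 792 counts in WT line 1 and 515, 457 and 380 in RTF2-deficient line 1. In line 2 it had 964, 1150 and 762 counts in WT and 391, 279 and 519 in RTF2-deficient MEFs. The highest RTF2-deficient library was below the lowest WT library in both lines. The level was 50.7% of WT in line 1 and 44.0% in line 2 (both lines, log2 fold change -1.08, SE 0.13, adjusted p = 0.000241). Rab4a, its paralog, which shares the recycling role, had 388 to 420 counts in WT line 1 and 405 to 465 in RTF2-deficient line 1, and 279 to 371 and 311 to 451 in line 2, with a log2 fold change of 0.21 (95% interval -0.0247 to 0.452, adjusted p = 0.206). Of the 75-base windows of Rab4b, 52.5% also occur in Gm21983, an annotated gene over the same exons and strand that is not analysed here, and reads from those windows cannot be told apart.

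Rab1b, which like Rab1a controls ER-to-Golgi transport and Golgi structure, had 4696, 5380 and 5154 counts in WT line 1 and 3059, 3355 and 3075 in RTF2-deficient line 1. Line 2 gave 4494, 6003 and 4654 counts in WT and 3361, 2806 and 2997 in RTF2-deficient MEFs, again with no overlap. It was at 62.3% of WT in line 1 and 64.9% in line 2 (log2 fold change -0.65, SE 0.079, adjusted p = 0.000241). Rab1a was not called by edgeR, at 12279 to 13970 counts in WT and 12195 to 13837 in RTF2-deficient libraries (log2 fold change 0.08, 95% interval -0.0113 to 0.166, adjusted p = 0.217), and was called higher by DESeq2 (log2 fold change 0.09, adjusted p = 0.0467). After scaling for depth all 6 RTF2-deficient libraries lay above all 6 WT libraries for Rab1a, though by a small margin.

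Within a library, the ratio of the counts of such a pair does not depend on depth or scaling. Rab1b read counts were 0.363, 0.438 and 0.403 of those of Rab1a in WT line 1 and 0.343, 0.430 and 0.370 in WT line 2. They were 0.221, 0.262 and 0.228 of Rab1a in RTF2-deficient line 1 and 0.256, 0.230 and 0.218 in RTF2-deficient line 2. The Rab4b to Rab4a ratio was 1.89 to 3.29 in WT and 0.867 to 1.49 in RTF2-deficient libraries. Rab6b and Rab6a, and Rab3d and Rab3a, also had ratios that did not overlap, and the other 10 of the 14 pairs compared did. None of these ratios was tested, and the share of other gene pairs that do not overlap was not computed. Rab1b, Rab4b, Rab6b and Rab3d are themselves among the members called lower, so these ratios are not separate from those calls.

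**Figure D2:**
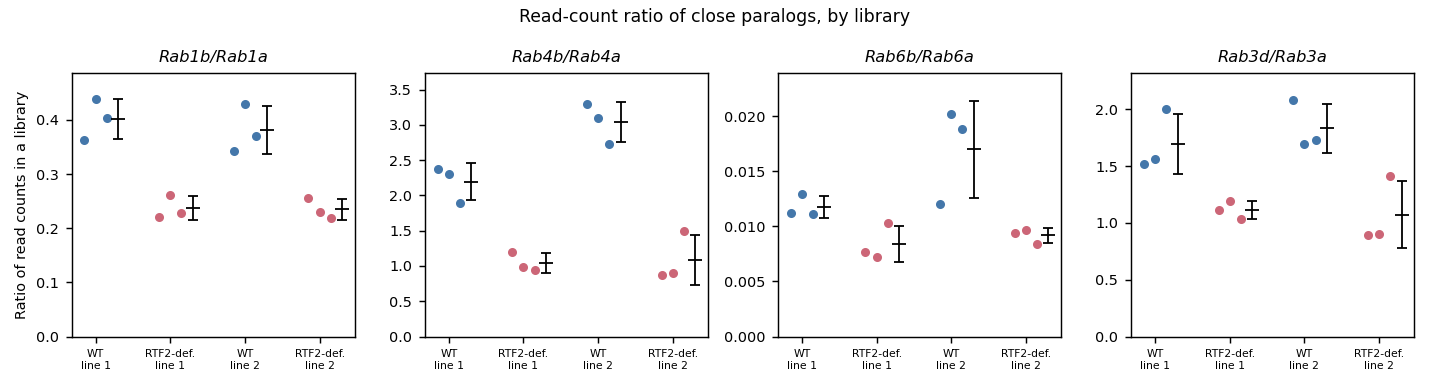
Ratio of read counts of the 4 pairs of close paralogs, of 14 compared, whose genotypes did not overlap, in each of the 12 libraries, by line and genotype (points), with the mean and SD of each group of 3 beside them. In each panel every RTF2-deficient library lies below every WT library, for Rab1b/Rab1a between 0.218 and 0.262 against 0.343 to 0.438.

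The sequences before the start sites of Rab4b, Rab1b and Rab1a are shown because the first and the second fell and the third did not. Each is the 250 bases upstream of the RefSeq start, 5′ to 3′ on the gene's strand (GRCm38.p6). Capitals mark matches on either strand to a GC box with the letters GGGCGG, a box with the letters CCAAT, an E-box, which reads CACGTG, or a TATA box, which reads TATAAA. No motif contains another.
Rab4b, chr7:27178884-27179133, minus strand: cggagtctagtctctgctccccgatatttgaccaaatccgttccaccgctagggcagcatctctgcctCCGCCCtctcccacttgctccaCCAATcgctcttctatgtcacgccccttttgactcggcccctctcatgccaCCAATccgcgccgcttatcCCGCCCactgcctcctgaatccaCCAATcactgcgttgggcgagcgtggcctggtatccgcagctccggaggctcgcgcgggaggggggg
Rab1b, chr19:5106997-5107246, minus strand: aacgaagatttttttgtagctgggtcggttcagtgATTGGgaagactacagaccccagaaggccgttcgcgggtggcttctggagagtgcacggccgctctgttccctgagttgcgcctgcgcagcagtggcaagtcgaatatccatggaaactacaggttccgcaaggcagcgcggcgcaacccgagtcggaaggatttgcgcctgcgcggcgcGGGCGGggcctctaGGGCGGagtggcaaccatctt
Rab1a, chr11:20201162-20201411, plus strand: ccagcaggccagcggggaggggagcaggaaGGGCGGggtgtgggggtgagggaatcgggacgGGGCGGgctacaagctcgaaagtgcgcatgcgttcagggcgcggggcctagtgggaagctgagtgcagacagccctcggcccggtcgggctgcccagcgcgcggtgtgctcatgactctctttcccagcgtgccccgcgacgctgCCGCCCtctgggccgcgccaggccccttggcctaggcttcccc
Rab4b had 2 GC boxes and 3 CCAAT boxes in this window, Rab1b 2 and 1, and Rab1a 3 GC boxes and no CCAAT box. Their GC content was 63.2%, 60.8% and 72.4%. A GC box stood in 68.8% of the 48 Rab promoters in the table and in 32.9% of all 27025 promoters of the same length, and a CCAAT box in 45.8% and 34.5%. An E-box was found in 8.33% of Rab promoters against 6.05% of all, and a TATA box in 8.33% against 13.0%. The 27025 promoters are 1 for each RefSeq gene, whether or not it was expressed here, so the shares do not compare Rab genes with expressed genes. These matches are a description of the letters in the windows.

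The Rab3 group, the classical Rabs of regulated exocytosis, held another pair of called members. Rab3b had 1563, 982 and 1010 counts in WT line 1 and 1040, 653 and 679 in RTF2-deficient line 1, and 3022, 2268 and 2067 in WT line 2 and 1156, 987 and 1715 in RTF2-deficient line 2. Its mean was lower within each line, at 66.7% and 55.9% of WT. The libraries of the genotypes overlapped in line 1 after scaling, and across the lines, but not within line 2 (log2 fold change -0.71, SE 0.16, adjusted p = 0.0142). Without line as a term its adjusted p was 0.128, with the interferon score as a term its log2 fold change was -0.46, and in line 1 alone it did not pass (log2 fold change -0.58, SE 0.24, adjusted p = 0.279). Same-numbered libraries of line 1 deviate together, and RTF2-deficient Rab3b stood at 0.665, 0.658 and 0.679 of its WT pair. With the replicate number as a block over 3 groups, a setting chosen after seeing the data, its adjusted p in line 1 was 0.00281 (edgeR). Without the block, leaving out 1 library moved the line 1 log2 fold change to between -0.82 and -0.34, the latter without WT line 1 replicate 1, with adjusted p up to 0.648. Rab3d had 505, 409 and 352 counts against 310, 288 and 204 in line 1 and 426, 350 and 324 against 213, 191 and 330 in line 2. It fell by 0.58 on the log2 scale (SE 0.14, adjusted p = 0.0207), and after scaling for depth no RTF2-deficient library reached the lowest WT library. Without RTF2-deficient line 2 replicate 1 or 2 its adjusted p rose to 0.0505 and 0.0535. Rab3a, the synaptic vesicle member, had 176 to 332 counts in WT and 199 to 280 in RTF2-deficient libraries and was not called (log2 fold change 0.10, SE 0.15, adjusted p = 0.707). Of the 6 regulated secretion Rabs tested besides Rab26, 2 were lower and 4 were not called, beside the 8.18% lower and 4.98% higher among all genes, with a median log2 fold change of -0.38. Rab27a and Rab27b, which dock secretory granules and lysosome-related organelles, had log2 fold changes of 0.00 (SE 0.14) and -0.19 (SE 0.13).

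Among the Rabs of the ER and Golgi, 2 of 15 tested were lower by edgeR and 13 were not called, beside 8.18% of all genes lower and 4.98% higher. Besides Rab1b, the lower one was Rab6b, the form of the Golgi retrograde transport Rab that is prominent in neurons, with 102, 116 and 104 counts in WT line 1 and 71, 64 and 93 in RTF2-deficient line 1. In line 2 it had 96, 168 and 145 counts in WT and 81, 80 and 76 in RTF2-deficient MEFs. The genotypes overlapped across lines after scaling (log2 fold change -0.59, SE 0.16, adjusted p = 0.0305). Its call was lost without any 1 of 8 of the 12 libraries, with adjusted p up to 0.0783. Rab6a, the ubiquitous form, stood at 53.9 RPKM in WT against 0.564 for Rab6b and had a log2 fold change of 0.10 (SE 0.049, adjusted p = 0.216). Rab36 had 30 to 77 counts in WT and 16 to 45 in RTF2-deficient libraries and did not pass by edgeR (log2 fold change -0.78, SE 0.24, adjusted p = 0.0543). It passed by DESeq2 (adjusted p = 0.0194) and in 3 of the 12 edgeR fits without 1 library, those without WT line 1 replicate 3, RTF2-deficient line 1 replicate 2 or RTF2-deficient line 2 replicate 3 (adjusted p 0.0321 to 0.0497). Rab19 had the most negative log2 fold change of the 51, -1.62 (adjusted p = 0.208), with an SE of 0.83 on counts of 1 to 34 in WT and 0 to 12 in RTF2-deficient libraries.

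By edgeR 1 of 2 ciliary members and 1 of 7 of the late endosome, lysosome and autophagy group were lower, beside 8.18% of all genes. Rab23, a ciliary Rab that restrains Hedgehog signalling, had 2804, 2666 and 2867 counts in WT line 1 and 2381, 2310 and 2210 in RTF2-deficient line 1, and 3518, 3621 and 3694 against 2294, 2258 and 2685 in line 2. The genotypes did not overlap in either line, at 82.8% and 71.4% of WT (log2 fold change -0.38, SE 0.055, adjusted p = 0.000831). Rab28, the other ciliary member, had a log2 fold change of -0.01 (SE 0.059, adjusted p = 0.929). Rab24, an atypical Rab linked to autophagy, had 1046, 1094 and 942 counts in WT line 1 against 853, 831 and 831, and 1125, 1272 and 963 in WT line 2 against 827, 730 and 1076. Of the 6 RTF2-deficient libraries, line 2 replicate 3 alone lay inside the WT range (log2 fold change -0.28, SE 0.077, adjusted p = 0.0361). Leaving out any 1 of 9 of the 12 libraries ended this call, with adjusted p up to 0.0919, as did the fit with no filter on low counts (adjusted p = 0.057). Of its windows, 44.1% also lie in Prelid1 on the opposite strand, which had a log2 fold change of 0.03 (SE 0.14, adjusted p = 0.923).

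Rab22a, of early endosomes and their recycling tubules, was the only member that edgeR called higher in RTF2-deficient MEFs with both lines in 1 fit, and DESeq2 also called Rab1a and Rab14 (log2 fold changes 0.09 and 0.09). It had 2070, 2258 and 2156 counts in WT line 1 and 2383, 2490 and 2504 in RTF2-deficient line 1, and 2354, 2196 and 2051 against 2546, 2439 and 2637 in line 2. After scaling for depth all RTF2-deficient libraries were above all WT libraries, with group means at 114% of WT in line 1 and 124% in line 2 (log2 fold change 0.25, SE 0.047, adjusted p = 0.00523). The other 5 early endosome Rabs were not called, with log2 fold changes of at most 0.10 in size. Across the family 4 members besides Rab26 had all 6 RTF2-deficient libraries below all 6 WT libraries (Rab1b, Rab4b, Rab23 and Rab3d), 7.84% of 51 beside 4.41% of all genes. In the other direction stood Rab1a and Rab22a, 3.92% beside 1.56% of all genes.

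Of the 25 members over 10 RPKM in WT, 21 were not called by edgeR, Rab1a and Rab14 among them, which DESeq2 called higher, and their log2 fold changes lay between -0.06 and 0.11 with SEs of 0.038 to 0.096. The 95% intervals of these 21 reached from -0.237 to 0.237 at the widest. These values average the lines, and within a line Rab6a was called higher in line 2 (log2 fold change 0.21, adjusted p = 0.031), and Rab8b had log2 fold changes of 0.22 in line 1 and -0.26 in line 2 (adjusted p = 0.362 and 0.119). Among the 21 were Rab8a, Rab8b and Rab10 of constitutive exocytosis, Rab5a, Rab5b and Rab5c of early endosomes, Rab7 of late endosomes, and Rab11a and Rab11b of recycling endosomes.

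**Figure D3:**
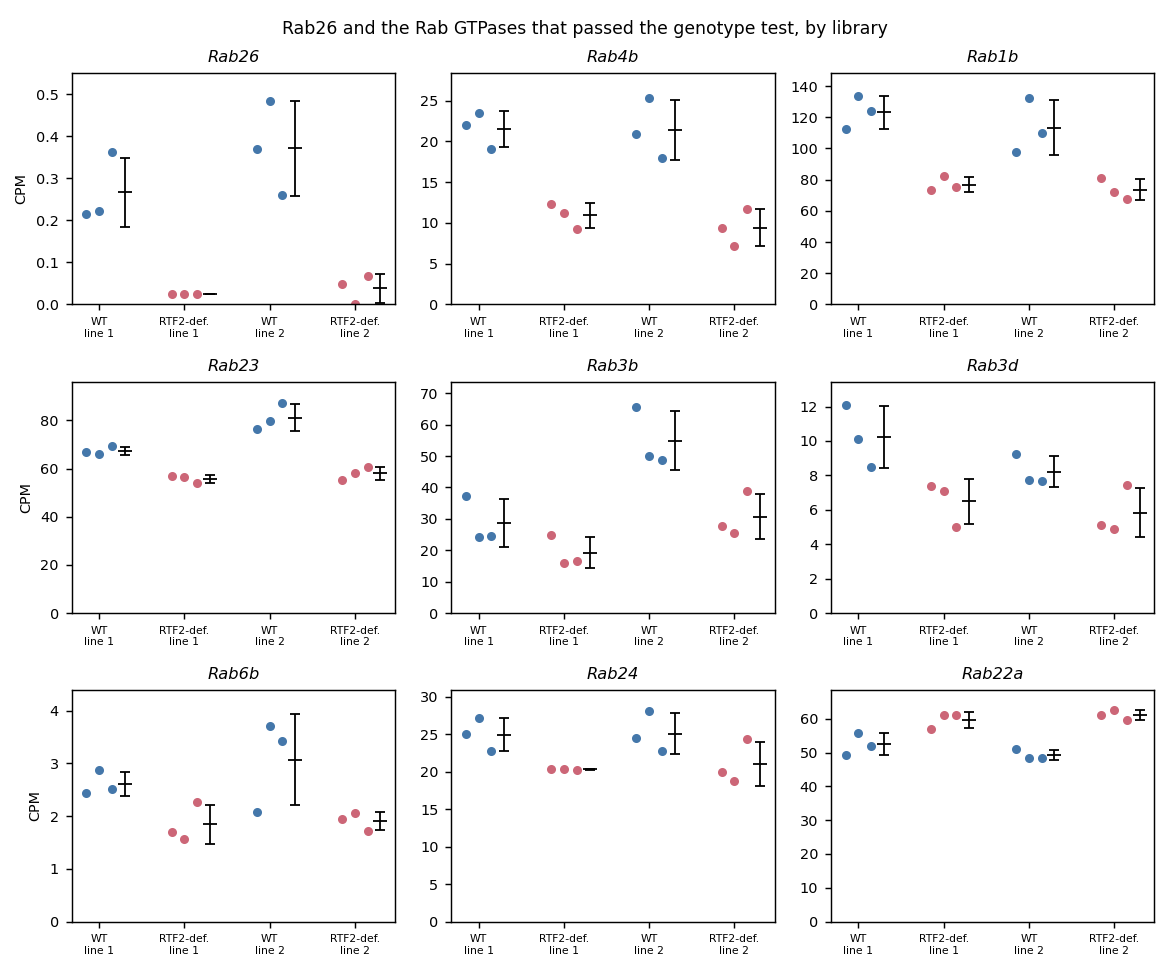
CPM of Rab26 and of the 8 other Rab GTPases that passed the genotype test, in each library (points), with the mean and SD of each group of 3 beside them, and axes from 0. Rab4b and Rab1b are lower in all 6 RTF2-deficient libraries, at 44.0% to 64.9% of WT, Rab22a is higher in all 6, and Rab26 is a description with no test.

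Taken line by line, with TMM scaling and no added term, edgeR called fewer members than with both lines in 1 fit. DESeq2 called 5 lower and 6 higher in line 2, against 8 lower and 3 higher over both lines. In line 1, Rab1b and Rab4b were lower (3.92% of 51, beside 2.52% of all genes), and no member was higher by edgeR (0.68% of all genes), with 1 at an unadjusted p under 0.05 and 0 by DESeq2. A block on the replicate number over WT line 1, RTF2-deficient line 1 and WT line 2, whose numbers pair the libraries, was chosen after seeing the data. With it edgeR called 7 members in line 1 (Rab15, Rab1b, Rab23, Rab3b, Rab3d, Rab4b and Rab7b), each lower, beside 5.45% of all genes lower and 2.37% higher. Without the block the log2 fold changes of Rab1b and Rab4b in line 1 were -0.68 (SE 0.12, adjusted p = 0.0092) and -0.98 (SE 0.19, adjusted p = 0.0166). In line 2, Rab1b, Rab4b, Rab23 and Rab3b were lower (7.84%, beside 7.03% of all genes), and Rab22a, Rab6a and Rab38 were higher (5.88%, beside 5.42%). Rab1b had a log2 fold change of -0.62 (SE 0.12, adjusted p = 0.00599) and Rab4b of -1.18 (SE 0.19, adjusted p = 0.00266) in line 2. Besides Rab26, 34 of the 51 members had the same sign in both lines, and the share of all genes that did was not computed. The line 1 counts without the block rested on few libraries: without WT line 1 replicate 2 neither was called, and 1 was called without WT line 1 replicate 1, RTF2-deficient line 1 replicate 2 or RTF2-deficient line 1 replicate 3.

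**Figure D4:**
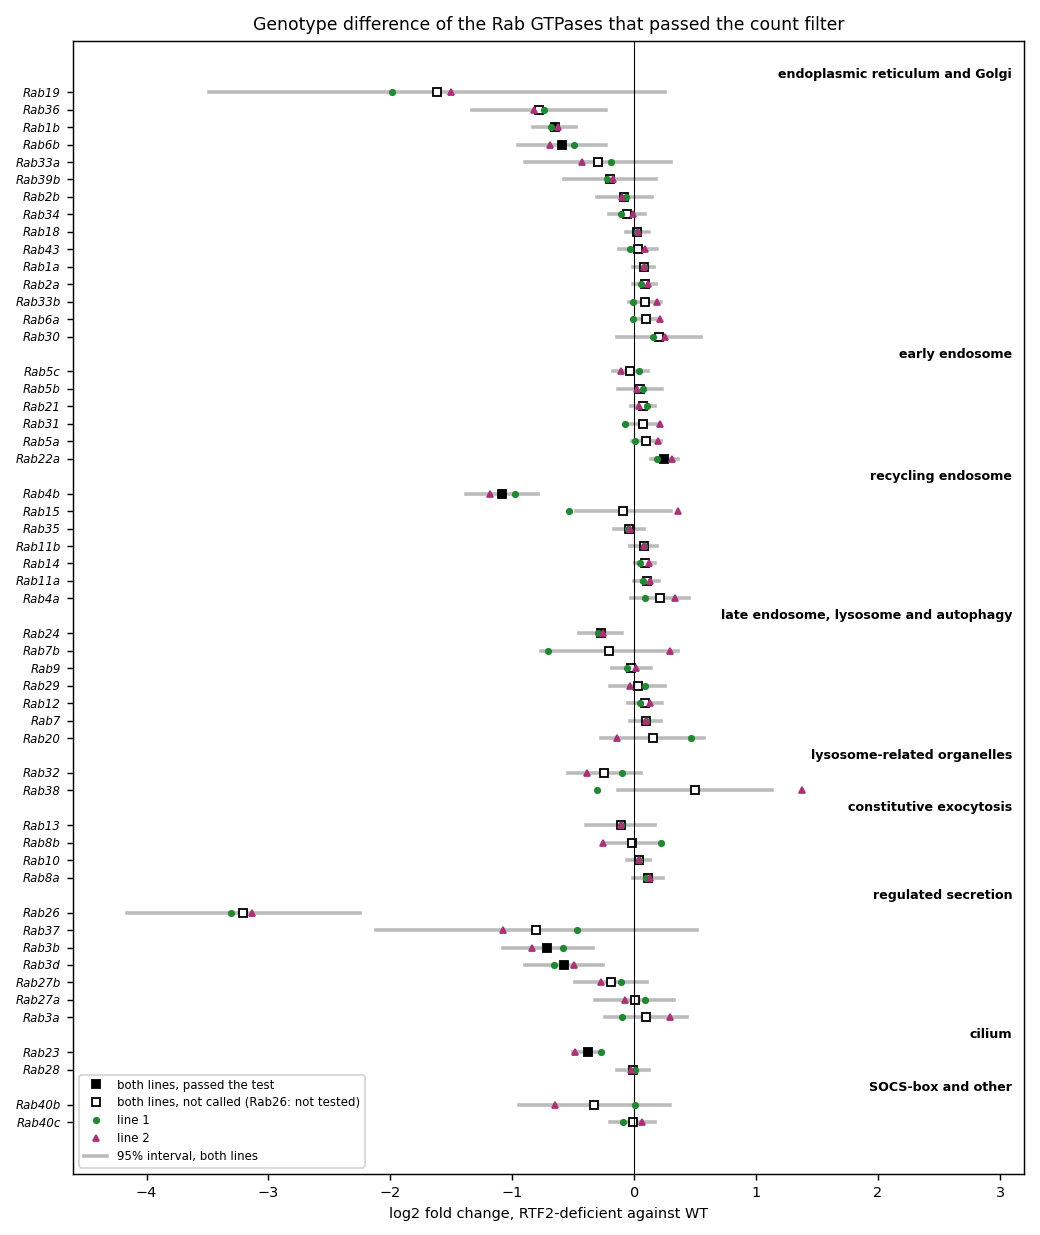
Log2 fold change of RTF2-deficient against WT MEFs for the 52 members that passed the count filter, grouped by role, with the fit over both lines (squares, filled where the test was passed), its 95% interval (bars), line 1 (circles) and line 2 (triangles). Most members sit within 0.25 of 0, Rab4b lies at -1.08 and Rab26 at -3.21, and Rab38 has its lines on opposite sides of 0. Rab26 is drawn with an open square, as a description with no test.

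Rab38, which with Rab32 delivers enzymes to melanosomes and other lysosome-related organelles, was the member whose genotype difference itself differed between the lines by edgeR. DESeq2 called Rab15 and Rab6a as well, and the fit with the interferon score called Rab15 and Rab8b as well. It had 206, 231 and 221 counts in WT line 1 and 155, 198 and 180 in RTF2-deficient line 1, but 42, 53 and 60 in WT line 2 and 132, 103 and 143 in RTF2-deficient line 2. WT line 2 was thus the low group, and its highest library was below every library of the other 3. The genotype log2 fold change was -0.30 in line 1 (SE 0.18, adjusted p = 0.524) and 1.37 in line 2 (SE 0.19, adjusted p = 0.00111), and the difference of the 2 was 1.67 (SE 0.26, adjusted p = 0.0132, edgeR interaction). Such a difference was found for 1.29% of all genes, and for 1.05% with a size over 1. The 5 melanocyte markers summed to 2.87 to 3.58 CPM in WT line 1 and 5.12 to 7.47 in WT line 2, where Rab38 was low, and to 2.94 to 4.11 and 3.75 to 5.31 in RTF2-deficient lines 1 and 2. Mitf had the highest level of the 5, at 1.91 to 5.80 CPM over all libraries, and Dct was at 0 in every library. WT line 2 is also the group with Y-linked transcripts, whose part in the Rab38 value cannot be told apart.

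The WT lines share their genotype. Between them 11 of the 51 members differed, in libraries that the genotype comparison also uses. The count was 6 without WT line 1 replicate 1, and 7 without WT line 1 replicate 2 or 3 or WT line 2 replicate 1 or 3. Markers of other cells differed as well: haematopoietic markers summed to 6.46 to 9.66 CPM in WT line 2 and 2.43 to 3.63 in WT line 1, and epithelial markers to 6.75 to 9.58 and 2.08 to 2.39. Their part in these differences was not tested. With the interferon score as a term 9 members differed. Rab38, Rab15, Rab4a, Rab33b, Rab6a and Rab5a were lower in WT line 2, 6 members (11.8%) beside 7.31% of all genes. Rab3b, Rab20, Rab32, Rab8b and Rab23 were higher there, 5 members (9.8%) beside 6.7% of all genes. Of the 11, Rab38 alone exceeded a log2 difference of 1, at -2.19 (SE 0.19, adjusted p = 3.5e-05), and 2.87% of all genes did so downward and 3.89% upward. Rab3b in WT line 2 was at 1.91 times its level in WT line 1 (log2 difference 0.93, SE 0.23, adjusted p = 0.0227). Rab32 was at 1.77 times (log2 difference 0.82, SE 0.19, adjusted p = 0.0134) and had a genotype log2 fold change of -0.25 (SE 0.13, adjusted p = 0.248). Rab32 had 568, 472 and 375 counts in WT line 1 and 907, 1005 and 794 in WT line 2. Rab8b, of exocytosis and cilium formation, was 1.51 times as high in WT line 2 (log2 difference 0.60, SE 0.099, adjusted p = 0.00247). Rab15, of endocytic recycling, was at 0.571 times (log2 difference -0.81, SE 0.17, adjusted p = 0.00789). Rab4b and Rab1b, the leading members of the genotype comparison, had log2 differences of -0.01 (SE 0.18) and -0.12 (SE 0.12) between the WT lines.

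Between the RTF2-deficient lines, which share no library with the WT comparison, no member passed by edgeR, with 5 at an unadjusted p under 0.05 and 0 by DESeq2. Of all genes 0.841% were lower and 1.09% higher in that comparison by edgeR at an adjusted p under 0.05. Rab38 had a log2 difference of -0.52 (SE 0.18, adjusted p = 0.214), and Rab3b of 0.68 (adjusted p = 0.218). The other 9 members that differed between the WT lines lay between -0.24 (Rab4a) and 0.53 (Rab32).

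**Figure D5:**
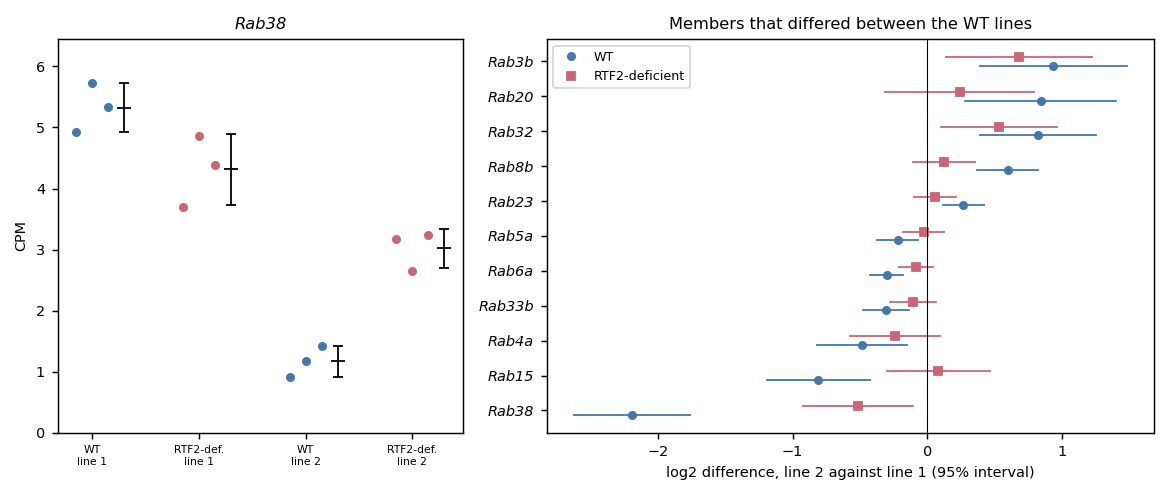
Left, Rab38 CPM in each library (points) with the mean and SD of each group of 3. Right, log2 difference of line 2 against line 1 with its 95% interval for the 11 members that differed between the WT lines, in WT (circles) and RTF2-deficient MEFs (squares). Rab38 lies at -2.19 in WT and -0.52 in RTF2-deficient MEFs.

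The genes that run the Rab cycle were listed by class, and 143 of 147 were tested. In RTF2-deficient MEFs 19 were lower (13.3%, beside 8.18% of all genes) and 10 higher (6.99%, beside 4.98%), and the median log2 fold change was -0.01. The lower count was 12 without WT line 2 replicate 3 or RTF2-deficient line 2 replicate 1 or 2, and 11 with the interferon score as a term. The higher count was 6 without WT line 2 replicate 3 or RTF2-deficient line 2 replicate 2 and 5 without the line term, and with summed libraries no regulator passed by edgeR, with 20 lower and 11 higher at an unadjusted p under 0.05. DESeq2 called 21 lower and 16 higher. As above, the unadjusted and DESeq2 counts have no share of all genes beside them. The largest log2 fold change among the called regulators, in size, was -0.92, of Trappc6a. The genes named here were chosen after their values were seen.

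Among 47 GEF genes tested, 6 were lower and 5 higher, beside 8.18% and 4.98% of all genes, a background that holds for each class below. TRAPP complexes, which activate Rab1, gave 2 lower and 1 higher of 14 subunits, with a median log2 fold change of 0.01. Trappc6a had 270, 291 and 219 counts in WT line 1 and 161, 150 and 138 in RTF2-deficient line 1, and 329, 386 and 232 against 162, 124 and 144 in line 2, without overlap (log2 fold change -0.92, SE 0.13, adjusted p = 0.000672). Trappc3 also fell (log2 fold change -0.50, SE 0.063, adjusted p = 0.000361), and Trappc8 rose (log2 fold change 0.28, SE 0.055, adjusted p = 0.00637). Rab3ip, which encodes the Rab8 activator Rabin8, had 2224 to 2709 counts in WT line 1 and 2601 to 2935 in RTF2-deficient line 1, but 1357 to 1596 in WT line 2 and 2259 to 2939 in RTF2-deficient line 2. As with Rab38, WT line 2 was the low group, and the genotype effects differed between lines by 0.75 on the log2 scale (SE 0.16, adjusted p = 0.0476). This call was lost in 10 of the 12 fits without 1 library, with adjusted p up to 0.129.

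Of 41 GAP genes 6 were lower and 3 higher, of 42 effector genes 5 were lower and 2 higher, and of 5 Rab-like GTPases 1 was lower. Tbc1d23, of endosome-to-Golgi transport, fell by 0.53 on the log2 scale (SE 0.063, adjusted p = 0.000222). Ift27, the Rab-like subunit of the ciliary transport complex IFT-B, fell by 0.63 (SE 0.093, adjusted p = 0.00104). Rabep1, which encodes the Rab5 and Rab4 effector Rabaptin-5, rose by 0.25 (SE 0.057, adjusted p = 0.0146). All 5 members of the Rab11 family interacting proteins were not called, with log2 fold changes between -0.11 and 0.29.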

How the data were processed

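Deposited raw counts of reads per gene, which the authors did not normalize, were used for all 12 libraries and identified by Entrez Gene number. In the methods reads were quantified by Salmon against mm10 and summed per gene by tximport, whereas HTSeq appears in the processing notes of the submitters. No source used here gives strand use in counting or poly(A) selection. Totals per library were 39360167 to 44695002. RefSeq (GRCm38.p6) gave symbols for 24045 of 24100 identifiers and 48 of 59 Rab promoters, and GENCODE M21 gave exon lengths and coding sequences. After filterByExpr on the 4 groups, libraries were scaled by TMM and genes tested by edgeR 4.0.16 (glmQLFit and glmQLFTest, R 4.3.3) with line and genotype as terms, or by contrasts in a layout of 4 groups. Adjusted p is Benjamini-Hochberg over all genes, and the threshold is 0.05. The SE is the unshrunk coefficient's size over the square root of F. Level per length is CPM per kilobase of exon union, and 95% intervals use the SE and the residual degrees of freedom. The steps were tested on simulated data. Named were Rab26, members called by genotype or interaction or by over 1 (log2) between lines, the highest and lowest levels, the closest relative of Rab26 and neighbouring genes. That relative was taken by coding sequence. The members, lists, rules and tests were chosen with earlier results of these data known. The alternatives were DESeq2 1.42.0, RLE scaling, no filter, a replicate block, no line term, the interferon score as a term, summed libraries, and each library left out. Replicate numbers pair the libraries of WT line 1, RTF2-deficient line 1 and WT line 2, where the 9 same-numbered correlations of deviations from group means were 0.287 to 0.625. No label says what a number marks, and a block over these groups was added after seeing the data. A result among the regulators is not reported here.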

Additional observations from a re-analysis of the deposited data

Results flagged for a closer look

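The genotype effects of 2 genes differed between the lines by the edgeR interaction test. For Rab38 the log2 fold change in line 2 exceeded that in line 1 by 1.67 (adjusted p = 0.0132), since 3 of 3 WT line 2 libraries were lower than every library of the other groups. For Rab3ip, which encodes a GEF of Rab8, the difference was 0.747 (adjusted p = 0.0476), and again 3 of 3 WT line 2 libraries were lower than every other library. The same 3 libraries hold the Y-linked transcripts, and the cause was not tested. Single outlying values were not tested for in groups of 3 libraries.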

How the results depend on the processing

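No log2 fold change recomputed under the alternatives changed direction. Summed libraries (1 sample per line and genotype) left 0 lower and 0 higher Rab GTPases, with 9 and 1 at an unadjusted p under 0.05, and 0 and 0 regulators, with 20 and 11; Rtf2 itself then had an adjusted p of 0.0708. DESeq2 gave 3 higher Rab GTPases, 5 in line 1, 11 in line 2, 3 with a difference between lines (Rab15, Rab38 and Rab6a) and 16 higher regulators. No share of all genes was computed for the counts at an unadjusted p or by DESeq2. With the interferon score as a term there were 4 in line 1, 3 with a difference between lines (Rab15, Rab38 and Rab8b), 2 between the RTF2-deficient lines (Rab5b and Rab8b) and 11 lower regulators, and Rab3d and Rab24 were lost (adjusted p = 0.0597 and 0.0832). Without the line term there were 5 higher regulators, and Rab3b was lost (adjusted p = 0.128). Over fits without 1 library, Rab GTPases numbered 4 to 8 lower, 0 to 3 in line 1, 5 to 8 in line 2 and 6 to 11 between the WT lines, and regulators 12 to 22 lower and 6 to 11 higher. The lowest count of lower Rab GTPases, 4, came without RTF2-deficient line 2 replicate 1 or 2. In the fit over both lines, leaving out a library ended no call of Rab4b, Rab1b, Rab23, Rab3b or Rab22a. The replicate block over all 12 libraries left 6 lower and 1 higher Rab GTPases and lost Rab24 (adjusted p = 0.0606) and the Rab3ip difference (adjusted p = 0.0695). Same-numbered libraries of RTF2-deficient line 2 and the other groups correlated from -0.587 to 0.17, while its replicates 3, 1 and 2 correlated with replicates 1, 2 and 3 of those groups at 0.514 to 0.654, 0.399 to 0.612 and 0.334 to 0.375. The block over 12 libraries is therefore out of step for this group. Calls lost under it are not read as weaker effects, and calls gained under the next block are not read as stronger ones. A replicate block over the other 3 groups, chosen after seeing the data, gave 7 Rab GTPases in line 1 and 12 between the WT lines, 7 lower and 5 higher, beside 13.1% and 13.6% of all genes. Depth limits Rab26 and the 7 members under the filter.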
